A study of Mus musculus with 4 samples.

Results

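The genes of cholesterol and fatty acid synthesis were followed in T helper cells, with or without the transcriptional repressor Bach2, before and after 4 h of re-stimulation through the T cell receptor. The set held 35 genes chosen by their known function, with earlier results of these data known. It had 57 probes, out of 18749 genes that could be named among 41173 probes on the array. It was made of 18 enzymes of sterol synthesis, 5 genes that control the sterol-responsive transcription factors SREBP, 6 enzymes of fatty acid synthesis, elongation and desaturation, and 6 genes of sterol transport and of the liver X receptors (LXR). Of the 35 genes, 34 were well above background on all 4 arrays, and the exception was Abca1 on 1 array.

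Cells make cholesterol from acetyl-CoA through mevalonate, farnesyl diphosphate, squalene and lanosterol, and make fatty acids from acetyl-CoA through malonyl-CoA. When sterols are scarce, SCAP escorts SREBP proteins out of the endoplasmic reticulum for cleavage, and the released part turns on both sets of enzymes, while INSIG proteins hold SCAP back when sterols are plentiful. LXR responds to oxidised sterols and turns on the exporters Abca1 and Abcg1. Activated T cells are known to use this programme to build membrane for growth.

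Naive CD4 T cells from spleens of C57BL/6J mice, labelled female, were stimulated for 2 days with anti-TCR-β antibody at 3 μg/ml and anti-CD28 antibody at 1 μg/ml, then kept for 3 more days with IL-2 at 2.5 ng/ml. The groups were Bach2 WT and Bach2 KO, the latter carrying Bach2flox/flox and a CD4-Cre transgene, so that the deletion was restricted to cells that use the Cd4 promoter, while the WT labels name no Cre and the study calls its control mice CD4-Cre. Each genotype was measured without re-stimulation, named (-), and after 4 h on immobilised anti-TCR-β antibody without added IL-2, named (+), with 1 one-colour array in each of the 4 groups and no age in the sample labels. The change on re-stimulation therefore cannot be told apart from any effect of the missing IL-2, and a smaller share of cells of one kind cannot be told apart from less RNA per cell.

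Levels are given as scaled signal, the array intensity after every array was brought to the same 75th percentile, and differences are given as log2 values or as folds. With no replicates no test could be made, and the only measure of error was the disagreement between probes of the same gene, whose SD had a median of 0.0885 to 0.1507 log2 units over 3852 genes, depending on the comparison. Probes of a gene read the same RNA on each array, so this SD does not measure the spread between arrays or cultures. A gene was called different where it was at least 2-fold higher or lower. As an alternative named where it matters, arrays were scaled to the signal of Cd3e, a subunit of the T cell receptor complex.

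The arrays were alike in quality, with 53.55% to 53.96% of probes well above background and no saturated spot. The scaled signal of Bach2 was 2555 on WT (-), 2305 on KO (-), 4024 on WT (+) and 3319 on KO (+), so the probe did not separate the genotypes, which are named by their labels. Eif2s3y, a Y-linked gene, had a scaled signal of 1038 and 1025 on the KO arrays and did not stand well above background in WT, and the X-inactivation RNA Xist was lower in KO by 1.04 and 1.19 log2 units. The genotypes therefore differed in sex-linked transcripts too, against the label that all were female, and the part of sex cannot be told apart from that of genotype. All 10 T cell identity genes were well above background on every array, with a summed scaled signal between 181700 and 204900. The summed signal of 9 macrophage and dendritic cell markers was 130.9 to 214.2 on the WT arrays and 304.0 to 470.4 on the KO arrays. Lyz2, Itgam, Fcgr1, Mrc1 and Cd209a were not well above background anywhere. Adgre1 was at 161.0 on WT (-), 359.4 on KO (-), 58.55 on WT (+) and 172.8 on KO (+). Itgax was well above background on the KO arrays only, at 57.53 and 60.08. Csf1r was so on WT (-) only, and Cd14 on both (-) arrays, at 14.79 in WT and 22.28 in KO. The summed signal on the WT and KO arrays was 212.8 to 511.7 and 450.8 to 725.1 for 7 B cell markers. For 10 mast cell and basophil markers it was 185.3 to 398.0 and 1281 to 2060. The part of such cells in the differences between genotypes was not tested.

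Promoter sequences of the set are shown first, and whether their motifs relate to the changes in signal was not tested. RefSeq promoter windows of the GRCm38.p6 build, from 250 bases before to 50 bases after the transcription start, were at hand for 28 of the 35 genes, in 37 windows. None was at hand for Fdps, Fdft1, Sqle, Scd1, Scd2, Stard4 and Abcg1. The stretches below are the 200 bases before the start for 4 sterol enzymes whose windows held a CCAAT box, for Insig1, an SREBP control gene whose probes disagreed, and for Fasn and Elovl6, 2 fatty acid enzymes with different patterns. They run 5′ to 3′ on the strand of the gene, with each CCAAT box (CCAAT, or ATTGG for the opposite strand) and the sterol regulatory element (TCACNCCAC) in capitals.
Hmgcs1, chr13:119690151-119690350, plus strand: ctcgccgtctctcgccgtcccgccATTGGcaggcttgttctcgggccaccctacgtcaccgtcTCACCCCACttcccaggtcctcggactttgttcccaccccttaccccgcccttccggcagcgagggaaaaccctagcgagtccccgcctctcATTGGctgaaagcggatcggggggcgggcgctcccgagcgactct
Idi1, chr13:8885406-8885605, plus strand: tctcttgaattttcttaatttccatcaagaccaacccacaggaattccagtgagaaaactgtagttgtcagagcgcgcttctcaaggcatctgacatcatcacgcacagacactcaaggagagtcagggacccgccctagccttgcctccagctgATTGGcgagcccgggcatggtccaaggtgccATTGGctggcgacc
Lss, chr10:76531405-76531604, plus strand: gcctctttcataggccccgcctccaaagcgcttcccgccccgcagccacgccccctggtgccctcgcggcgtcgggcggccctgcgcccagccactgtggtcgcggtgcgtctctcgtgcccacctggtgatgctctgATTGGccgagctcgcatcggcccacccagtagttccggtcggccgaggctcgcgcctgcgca
Cyp51, chr5:4104698-4104897, minus strand: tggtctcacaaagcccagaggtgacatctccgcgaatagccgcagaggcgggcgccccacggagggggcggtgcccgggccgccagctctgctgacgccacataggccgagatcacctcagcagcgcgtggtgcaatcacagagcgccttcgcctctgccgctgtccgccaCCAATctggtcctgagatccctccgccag
Insig1, chr5:28071212-28071411, plus strand: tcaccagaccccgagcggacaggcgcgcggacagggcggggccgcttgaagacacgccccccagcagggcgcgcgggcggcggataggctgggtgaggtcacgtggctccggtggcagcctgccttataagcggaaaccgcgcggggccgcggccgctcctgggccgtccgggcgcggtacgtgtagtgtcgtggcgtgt
Fasn, chr11:120824548-120824747, minus strand: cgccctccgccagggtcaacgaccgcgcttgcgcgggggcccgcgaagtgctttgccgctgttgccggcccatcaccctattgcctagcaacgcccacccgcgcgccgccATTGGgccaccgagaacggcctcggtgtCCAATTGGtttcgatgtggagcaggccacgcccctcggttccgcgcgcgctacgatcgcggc
Elovl6, chr3:129532186-129532385, plus strand: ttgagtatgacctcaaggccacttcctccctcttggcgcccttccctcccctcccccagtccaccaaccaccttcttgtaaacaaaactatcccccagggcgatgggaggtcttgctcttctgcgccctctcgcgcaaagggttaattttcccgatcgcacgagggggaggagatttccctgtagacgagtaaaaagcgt
The element of Hmgcs1 began at -137, and no other window of the set held these letters, against 408 (1.24%) of 32851 windows of all genes. A CCAAT box, the letters that the SREBP partner NF-Y is known to bind, was found in 14 of the 18 windows of the sterol enzymes and in 37.4% of all windows. These 14 windows belonged to 14 of 15 sterol enzymes with a window, all but Acat2, and the median distance of their 32 matches was -55. The GC box (GGGCGG) was found in 15 of the 18 windows and in 35.7% of all. The E-box (CACGTG) was found in 7 of the 37 windows of the whole set and in 7.15% of all. Both strands were searched for each motif, and in Fasn the matches at -62 and -59 overlapped. Insig1 held its CCAAT box at -216, outside the stretch shown, and the Elovl6 window held none of the 4 motifs.

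**Figure D1:**
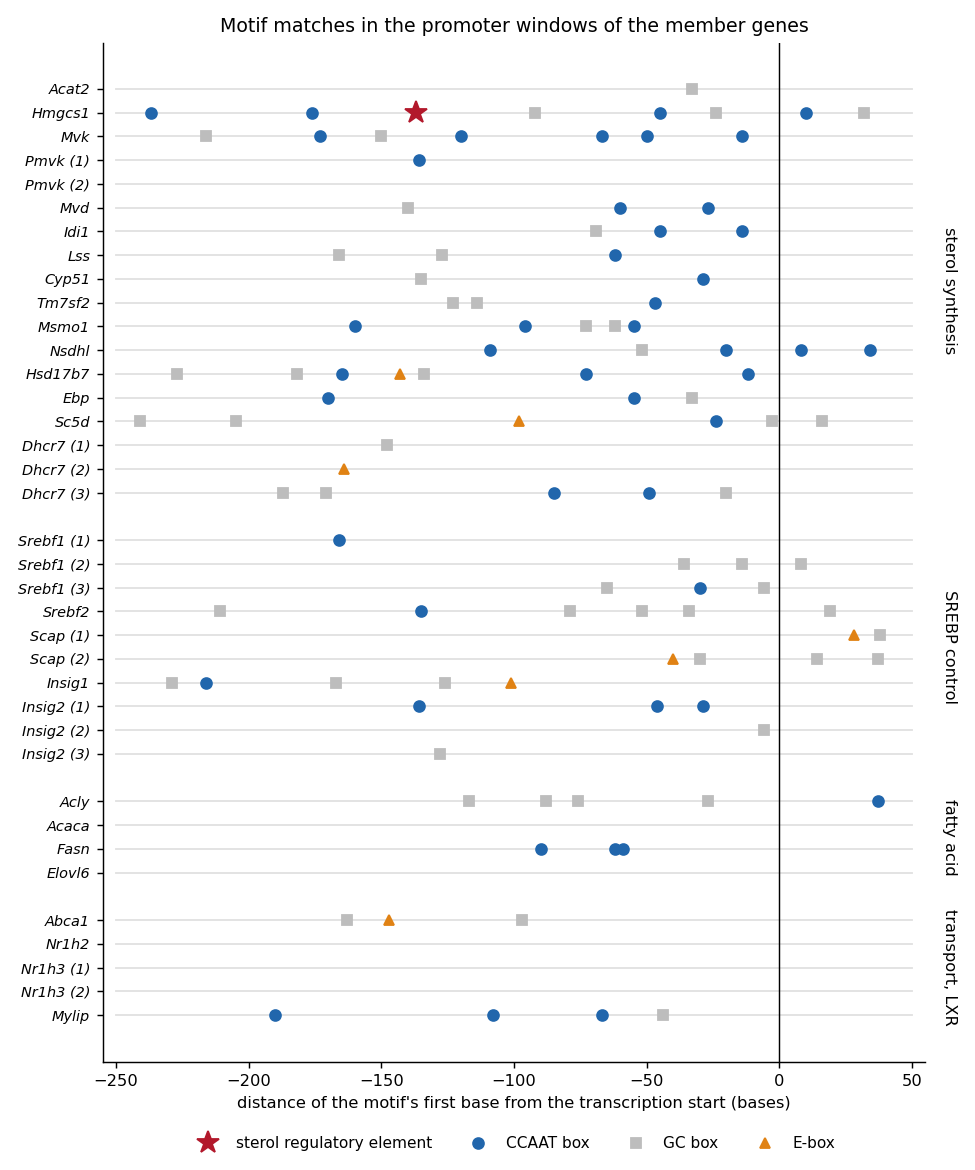
Matches of 4 motifs in the 37 promoter windows of 28 genes, with the distance of the first base of each match from the transcription start on the x axis and a line for each window (numbers in brackets mark different starts of a gene). CCAAT boxes lay before the start in 14 of the 18 windows of the sterol enzymes. The only exact match to the letters TCACNCCAC of the sterol regulatory element was that of Hmgcs1, and looser forms of the element were not searched.

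On re-stimulation the enzymes of sterol synthesis had lower signal as a group. All 18 were lower after re-stimulation in WT and all 18 in KO (17 in KO with scaling to Cd3e, the exception being Hsd17b7), with a median change of -2.07 in WT (4.20-fold lower) and -1.20 in KO (2.30-fold lower), whereas the median change of all genes was -0.01 and 0.00. At least 2-fold falls were seen for 15 of the 18 in WT and 11 in KO. Over the whole set 21 genes fell at least 2-fold in WT and 16 in KO, against 13.5% and 13% of all genes, and 15 of the 35 did so in both genotypes, against 9.56% of all genes. Scaling to Cd3e instead left 6 sterol enzymes past 2-fold in KO.

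**Figure D2:**
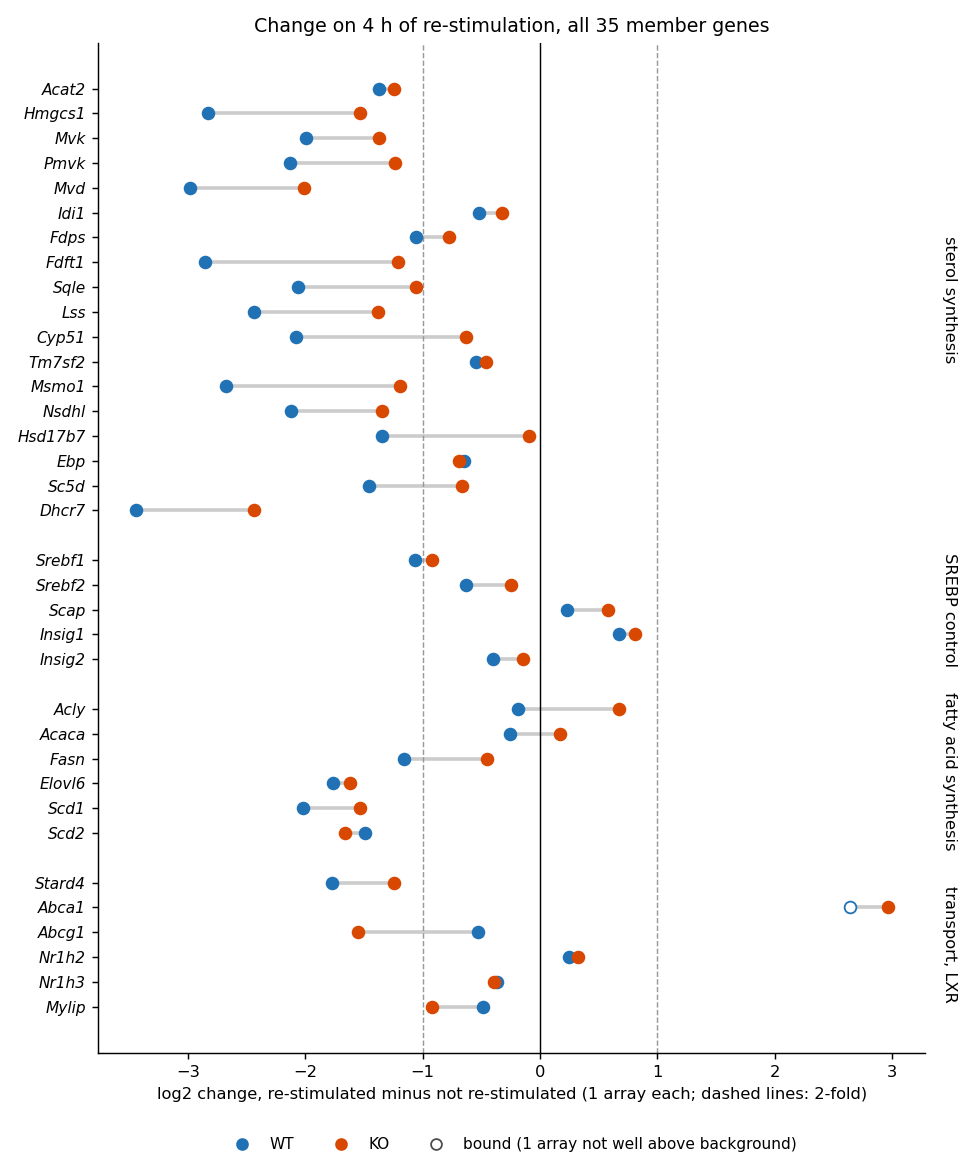
Change on 4 h of re-stimulation as the log2 of the re-stimulated over the not re-stimulated signal, for the 35 genes by role, in WT (blue) and KO (orange), with 1 array a point. All sterol enzymes lie left of 0 in both genotypes, and 17 of the 18 lie further left in WT.

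The largest falls in WT were those of enzymes along the whole sterol route. Dhcr7, the last reductase of cholesterol synthesis, had a scaled signal of 10520 on WT (-), 7877 on KO (-), 968.1 on WT (+) and 1458 on KO (+), a fall of 10.9-fold in WT and 5.40-fold in KO. Only 0.0485% of all genes were as low on this scale in WT, and 0.726% in KO. Mvd, which makes isopentenyl diphosphate from mevalonate diphosphate, was at 8749 on WT (-), 5272 on KO (-), 1110 on WT (+) and 1309 on KO (+), and fell 7.88-fold and 4.03-fold. Hmgcs1, which makes HMG-CoA, was at 31280 on WT (-), 21060 on KO (-), 4410 on WT (+) and 7264 on KO (+), and fell 7.09-fold and 2.90-fold. Fdft1, squalene synthase, was at 5329 on WT (-), 3233 on KO (-), 735.5 on WT (+) and 1400 on KO (+), and fell 7.25-fold and 2.31-fold. In KO the falls of Scd2, Elovl6, Abcg1, Scd1, Lss, Mvk, Nsdhl, Acat2, Stard4 and Pmvk, given further on, also exceeded that of Fdft1. In Dhcr7, Mvd, Hmgcs1 and Fdft1 both re-stimulated arrays were below both arrays without re-stimulation, and WT had the higher signal before and the lower signal after.

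The middle of the route showed the same order of the arrays. Msmo1, the C4 sterol methyl oxidase, had a scaled signal of 17990 on WT (-), 11780 on KO (-), 2809 on WT (+) and 5147 on KO (+). Lss, lanosterol synthase, was at 2752 on WT (-), 2010 on KO (-), 507.7 on WT (+) and 774.2 on KO (+). Sqle, squalene epoxidase, was at 7663 on WT (-), 5434 on KO (-), 1839 on WT (+) and 2606 on KO (+). Their changes were -2.68, -2.44 and -2.06 in WT and -1.19, -1.38 and -1.06 in KO. Cyp51, which removes the C14 methyl group of lanosterol, was at 1361 on WT (-), 823.8 on KO (-), 322.3 on WT (+) and 533.3 on KO (+), with changes of -2.08 and -0.63. Its dimmer probes gave smaller changes, -1.33 and -1.43 in WT and -0.17 and -0.37 in KO. Nsdhl, of the same demethylation complex as Msmo1, was at 692.6 on WT (-), 503.7 on KO (-), 159.0 on WT (+) and 198.6 on KO (+), with changes of -2.12 and -1.34. All 5 of these genes passed 2-fold in WT, and Cyp51 was the one that did not in KO.

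The kinases of mevalonate behaved alike. Pmvk was at 21350 on WT (-), 13110 on KO (-), 4889 on WT (+) and 5573 on KO (+), and Mvk at 1158, 951.5, 290.9 and 368.3 on the same arrays. Acat2, the cytosolic thiolase that makes acetoacetyl-CoA, was at 268.1 on WT (-), 191.9 on KO (-), 103.6 on WT (+) and 80.92 on KO (+). These 3 genes fell in both genotypes, Pmvk by 2.13 and 1.23 on the log2 scale, Mvk by 1.99 and 1.37, and Acat2 by 1.37 and 1.25. In Acat2 the KO array was the lower one both before and after, unlike in the kinases.

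In Hsd17b7 and Sc5d the WT (+) array stood apart. Hsd17b7, the 3-ketosteroid reductase of the demethylation complex, was at 1269 on WT (-), 1101 on KO (-), 499.7 on WT (+) and 1034 on KO (+), a 2.54-fold fall in WT beside a change of -0.09 in KO. A second probe of Hsd17b7 gave -1.49 and -0.19, and scaling to Cd3e turned the change in KO to 0.16. Sc5d, the C5 desaturase, was at 7593 on WT (-), 7478 on KO (-), 2761 on WT (+) and 4713 on KO (+), with changes of -1.46 and -0.67. For both genes it was the lowest of the 4 arrays.

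Idi1, Fdps, Tm7sf2 and Ebp had the smallest changes among the sterol enzymes in WT, between -1.05 and -0.52. Idi1, which interconverts the isoprenoid units, was at 9950 on WT (-), 6957 on KO (-), 6949 on WT (+) and 5547 on KO (+), and Fdps, which joins them, at 26710, 19730, 12860 and 11520. A second Idi1 probe gave changes of -0.13 in WT and 0.01 in KO, so the direction for Idi1 in KO differed between probes. Tm7sf2, a C14 sterol reductase, was at 2746 on WT (-), 1608 on KO (-), 1877 on WT (+) and 1166 on KO (+). Ebp, the sterol isomerase, was at 37620 on WT (-), 38660 on KO (-), 24070 on WT (+) and 23960 on KO (+), and was the one sterol enzyme with a slightly larger change in KO (-0.69) than in WT (-0.64).

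**Figure D3:**
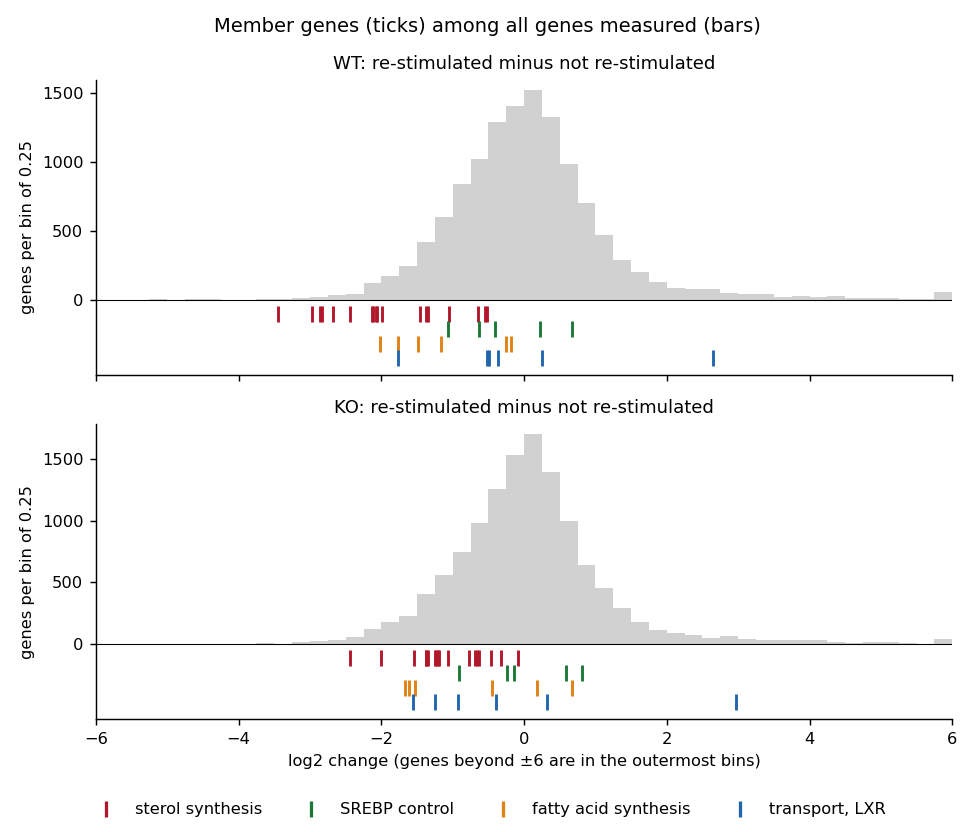
Distribution of the log2 change on re-stimulation over all genes measured (grey bars, genes per bin of 0.25), in WT (top) and KO (bottom), with the 35 genes as ticks coloured by role. The sterol enzymes lie in the lower part of both distributions, whose median is near 0.

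The genes that control SREBP moved less than the enzymes. Srebf1, which encodes SREBP1, was at 24930 on WT (-), 24830 on KO (-), 11930 on WT (+) and 13150 on KO (+), falling 2.09-fold in WT and differing 1.89-fold in KO. Srebf2, which encodes the SREBP best known for sterol genes, was at 2996 on WT (-), 2889 on KO (-), 1938 on WT (+) and 2435 on KO (+). Its changes were -0.63 and -0.25, below 2-fold, and in KO the sign turned with scaling to Cd3e. Scap was higher after re-stimulation by 0.23 in WT and 0.58 in KO, with a scaled signal of 14340 on WT (-), 13660 on KO (-), 16810 on WT (+) and 20430 on KO (+). Scaling to the array median turned the sign for Scap in WT.

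Insig1, itself a known SREBP target, was at 152.9 on WT (-), 218.6 on KO (-), 244.0 on WT (+) and 383.5 on KO (+). That is a change of 0.67 in WT and 0.81 in KO, opposite to the sterol enzymes, but a second probe gave -0.47 and 0.19. The 2 Insig1 probes thus disagreed on the direction in WT. Insig2 was at 777.0 on WT (-), 849.5 on KO (-), 587.1 on WT (+) and 767.1 on KO (+), with changes of -0.40 and -0.15, neither past 2-fold, and in KO the sign turned with scaling to Cd3e.

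In fatty acid synthesis the late steps, elongation and desaturation, changed most on re-stimulation. Scd1, a stearoyl-CoA desaturase, was at 1579 on WT (-), 677.1 on KO (-), 390.5 on WT (+) and 233.7 on KO (+), a fall of 4.04-fold in WT and 2.90-fold in KO. Scd2, its paralogue, was at 41110 on WT (-), 33350 on KO (-), 14650 on WT (+) and 10530 on KO (+), a fall of 2.81-fold and 3.17-fold. Elovl6, which elongates palmitate to stearate, was at 7732 on WT (-), 2431 on KO (-), 2274 on WT (+) and 792.5 on KO (+), a fall of 3.40-fold and 3.07-fold. For all 3 the (+) array was below the (-) array of its genotype and the KO array below the WT array of its state. Whether probes of Scd1 and Scd2 share signal was not tested.

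The early steps changed less. Fasn, fatty acid synthase, was at 77200 on WT (-), 61770 on KO (-), 34560 on WT (+) and 45090 on KO (+), a fall of 2.23-fold in WT and a difference of 1.37-fold in KO. Acly, which supplies cytosolic acetyl-CoA, was at 1235 on WT (-), 957.1 on KO (-), 1083 on WT (+) and 1523 on KO (+), with changes of -0.19 in WT and 0.67 in KO. Acaca, acetyl-CoA carboxylase, was at 442.8 on WT (-), 367.5 on KO (-), 370.2 on WT (+) and 414.7 on KO (+), with changes of -0.26 and 0.17. Neither passed 2-fold, and the WT sign of both turned with scaling to Cd3e. The WT sign of Acaca also turned with the mean over its probes, and its KO sign with scaling to the array median.

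The sterol exporters went opposite ways. Abca1, a cholesterol exporter, was not well above background on WT (-), where its scaled signal was 7.409, and was at 24.28 on KO (-), 82.18 on WT (+) and 189.5 on KO (+). It rose at least 6.24-fold in WT and 7.80-fold in KO, and was the only gene of the set past 2-fold upwards on re-stimulation in either genotype, where 13.2% of all genes in WT and 12.4% in KO were. Abcg1, an exporter to high-density lipoprotein, was at 1585 on WT (-), 1278 on KO (-), 1101 on WT (+) and 434.8 on KO (+), a change of -0.53 in WT and a 2.94-fold fall in KO. Both genes are known LXR targets, and they moved in opposite directions.

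The sterol carrier Stard4 fell on re-stimulation, and the receptors themselves varied less between arrays. Stard4, a cytosolic protein, was at 2936 on WT (-), 2223 on KO (-), 859.0 on WT (+) and 937.6 on KO (+), and fell by 1.77 in WT and 1.25 in KO on the log2 scale. Its dimmer probes gave -0.94 and -0.99 in WT and -0.54 and -0.61 in KO, short of 2-fold. Nr1h2, which encodes LXRβ, was at 2437 on WT (-), 2759 on KO (-), 2894 on WT (+) and 3462 on KO (+), and Nr1h3, which encodes LXRα, at 81.17, 53.75, 63.0 and 40.98. Neither LXR gene passed 2-fold in any comparison, and the sign for Nr1h2 in WT turned with scaling to the array median. Mylip, an LXR target that marks lipoprotein receptors for degradation, was at 609.8 on WT (-), 629.3 on KO (-), 434.4 on WT (+) and 332.5 on KO (+), with changes of -0.49 and -0.92, the latter turned in sign by the mean over its probes.

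**Figure D4:**
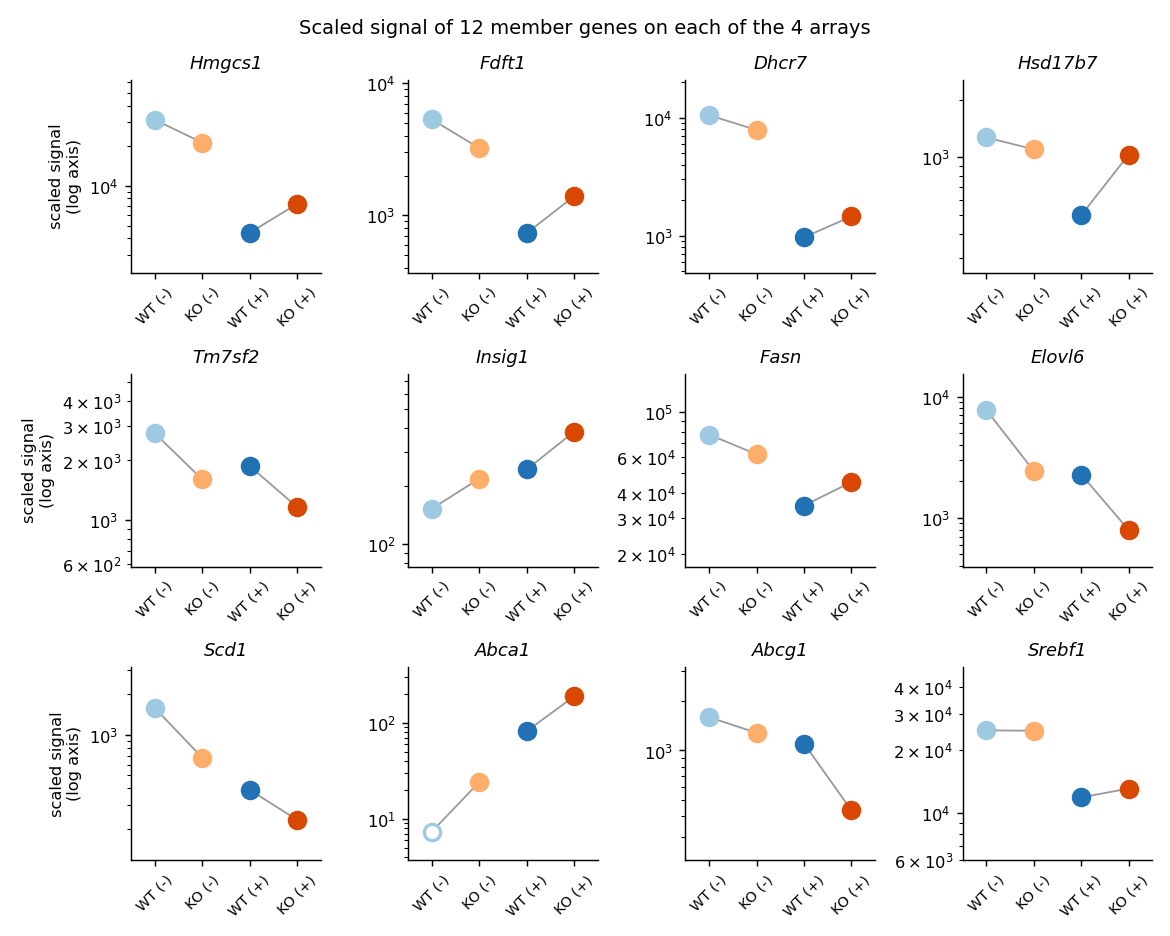
Scaled signal (log axis) of 12 of the 35 genes on each of the 4 arrays, with lines joining WT and KO of the same state and an open circle where the probe was not well above background. In Hmgcs1, Fdft1, Dhcr7, Hsd17b7 and Fasn the line slopes down before and up after re-stimulation, whereas in Elovl6, Tm7sf2 and Scd1 it slopes down in both states.

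Between genotypes, most of the set was slightly lower in KO before re-stimulation and slightly higher after it. Before re-stimulation 29 of the 35 genes were lower in KO, with a median difference of -0.40, where 50.4% of all genes were lower and their median was -0.00. After re-stimulation 24 were higher in KO, with a median of 0.28, where 51.86% of all genes were higher and their median was 0.02. For the sterol enzymes the medians were -0.49 before (17 of 18 lower) and 0.42 after (13 of 18 higher). Most of these differences were below 2-fold and, without replicates, cannot be set against the spread between cultures.

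Few genes passed 2-fold between genotypes. Before re-stimulation 2 of the 35 were at least 2-fold lower in KO, where 2.82% of all genes were, and none was at least 2-fold higher, where 5.26% of all genes were. After re-stimulation 2 were at least 2-fold higher, Abca1 and Hsd17b7 (neither with normexp and quantile normalization), where 5.17% of all genes were, and 2 were at least 2-fold lower, Elovl6 and Abcg1, where 3.86% of all genes were. With scaling to Cd3e 1 gene was past 2-fold upwards before re-stimulation beside the same number downwards.

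Elovl6 was 3.18-fold lower in KO before and 2.87-fold lower after re-stimulation, with 0.923% and 1.56% of all genes as low. It was the one gene of the set past 2-fold between genotypes in both states. Scd1, the next step of the same route to monounsaturated fat, was 2.33-fold lower before and 1.67-fold lower after. Both had lower signal on each KO array than on the WT array of the same state, and Scd2 had too, by 0.30 and 0.48 on the log2 scale. Tm7sf2, with differences of -0.77 and -0.69, was the sterol enzyme furthest below WT in both states.

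Abcg1 differed between genotypes by -0.31 before and was 2.53-fold lower in KO after re-stimulation. Abca1 was at least 1.84-fold higher in KO before and 2.31-fold higher after. The exporters thus differed in opposite directions between genotypes too. Nr1h3 was lower in KO by 0.59 and 0.62 on the log2 scale, and Insig1 was higher by 0.52 and 0.65, which its second probe gave as 0.16 and 0.81.

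**Figure D5:**
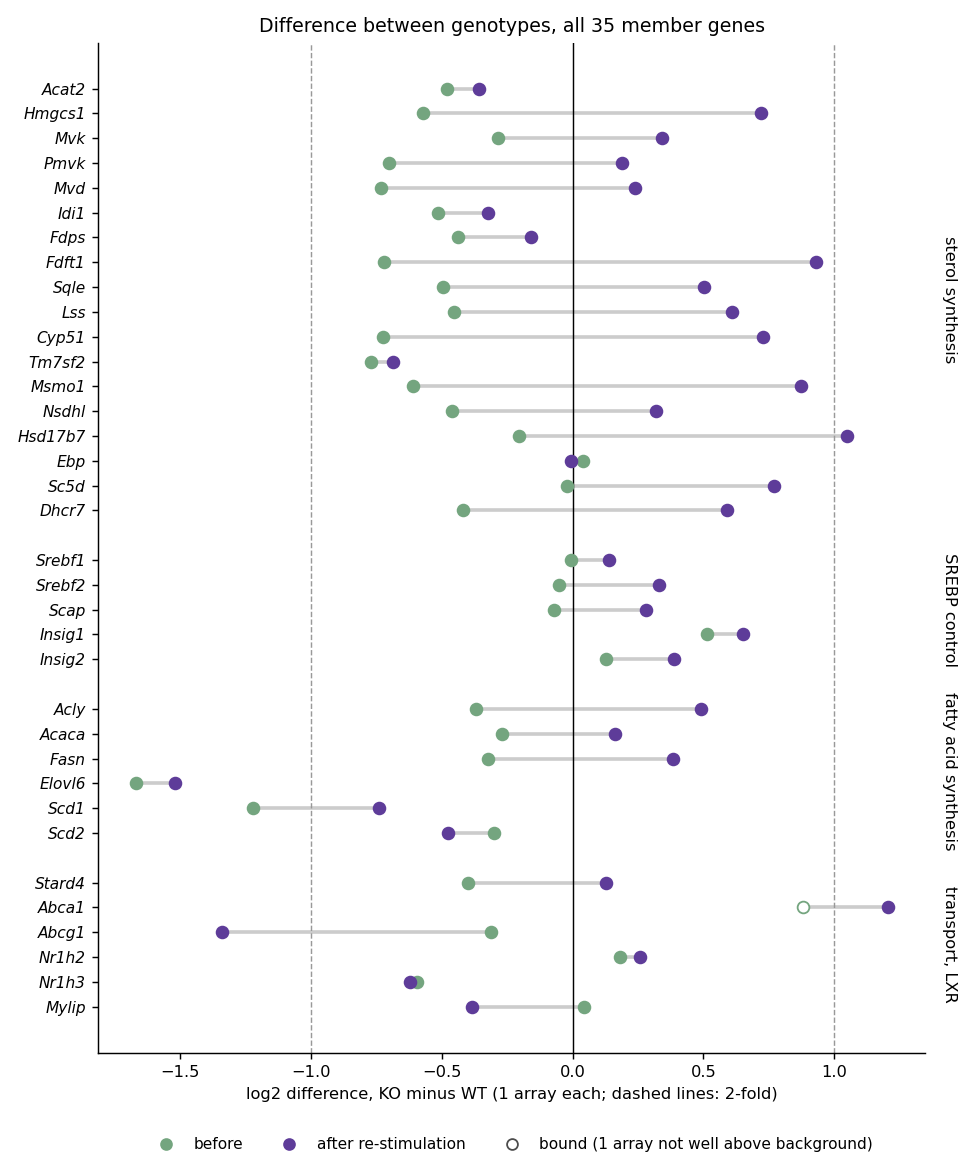
Difference between KO and WT (log2) before (green) and after (purple) re-stimulation for the 35 genes by role, with dashed lines at 2-fold and 1 array per group. In 13 of the 18 sterol enzymes the green point lies left of 0 and the purple point right of it, while Elovl6 lies beyond the left dashed line in both states.

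A lower signal in KO before and a higher one after re-stimulation was found in 20 of the 35 genes, against 17.7% of all genes. By role these were 13 of the 18 sterol enzymes, 3 of the 5 SREBP control genes, 3 of the 6 fatty acid genes (Acly, Acaca and Fasn) and 1 of the 6 transport and LXR genes (Stard4). A further 9 genes were lower in KO in both states, among them Elovl6, Scd1, Scd2, Tm7sf2, Acat2, Idi1 and Fdps, and 4 were higher in both. In 16 of the 20 both differences exceeded the median probe SD of all genes, which does not measure the spread between cultures. Of these 16, Fasn and Acaca had probes of opposite sign after re-stimulation. In the other 4 (Srebf1, Srebf2, Scap and Sc5d) the difference before was between -0.07 and -0.01 and its sign turned with scaling to Cd3e. The 5 sterol enzymes outside the pattern were thus Acat2, Idi1, Fdps, Tm7sf2 and Ebp. A second Fasn probe was lower in KO after re-stimulation (-0.20), beside 0.38 for the brighter probe, and the probes of Acaca ranged from -0.41 to 0.16, so the pattern in these genes rests on the probe chosen. For Stard4 the dimmer probes gave -0.08 before re-stimulation, within the median probe SD of 0.0885, beside -0.40 for the brighter one.

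Put as the difference between the responses of KO and WT, the change on re-stimulation was less negative in KO for 17 of the 18 sterol enzymes, with a median of 0.93. Across all genes well above background on every array this difference was positive in 49.51%, with a median of -0.003. The response differed by at least 2-fold in 7 of the 35 genes, against 1.81% of all genes, and all 7 were sterol enzymes (Hmgcs1, Fdft1, Lss, Cyp51, Msmo1, Hsd17b7 and Dhcr7). Fdft1 had the largest, 1.65, or 3.14-fold. In the other direction Abcg1 alone passed 2-fold, with -1.03, where 3% of all genes did. These differences of responses were not tested, since each rests on 4 single arrays.

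Across the 34 genes of the set with a signal well above background on every array, the changes on re-stimulation in WT and KO had a Pearson's r of 0.83 and a Spearman's rho of 0.77, and across all 10807 such genes 0.90 and 0.89. For the genotype differences in the (-) and (+) states the same 34 genes had an r of 0.40 and a rho of 0.15, and all genes had 0.62 and 0.49. These values are across genes, which are not replicates, and each pair of comparisons shares no array. The order of the changes was thus alike in WT and KO, while the order of the genotype differences before re-stimulation said little of that after it.

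Of the 35 genes 15 had more than 1 probe well above background. Their probes had the same sign in 14 of 15 genes for the genotype difference before re-stimulation (not Srebf2), 13 after it (not Acaca and Fasn), 13 for the change in WT (not Insig1 and Acaca) and 14 for that in KO (not Idi1). The median SD between their probes was 0.0855 to 0.1627 log2 units, near that of all genes with several probes. A dimmer Hmgcs1 probe gave -0.71 before, 1.08 after, -2.80 in WT and -1.02 in KO, beside -0.57, 0.72, -2.83 and -1.54 for the brighter one.

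Of 78 other genes of these pathways, 16 of 69 measured fell at least 2-fold in WT and 13 rose, where 13.5% and 13.2% of all genes did. In KO 14 of 66 fell and 12 rose, where 13% and 12.4% of all genes did. Their median changes were -0.39 and -0.24, with 62.32% of them lower in WT and 62.12% in KO. Between genotypes 3 were at least 2-fold higher in KO and 4 lower before re-stimulation, and 3 higher and 5 lower after, of 67 measured each time, where 5.26% and 2.82% of all genes were before and 5.17% and 3.86% after.

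At least 2-fold, 3 of 11 other sterol and isoprenoid genes fell and 2 rose in WT, and 1 fell and 2 rose in KO. Of all genes 13.5% fell and 13.2% rose so far in WT, and 13% and 12.4% in KO. At any size, 5 of the 11 were lower and 6 higher in WT, and 7 were lower and 4 higher in KO. Nus1, a subunit of the enzyme that makes dolichol precursors, was at 2303 on WT (-), 3383 on KO (-), 5613 on WT (+) and 8235 on KO (+), and rose by 1.29 in WT and 1.28 in KO. It was higher on both re-stimulated arrays.

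Among the other LXR targets Smpdl3a, a phosphodiesterase related to acid sphingomyelinase, was at least 2-fold lower in KO in both states, at 2984 on WT (-), 1463 on KO (-), 1060 on WT (+) and 396.5 on KO (+). Its differences between genotypes were -1.03 and -1.42 and its changes on re-stimulation -1.49 and -1.88. Lpcat3, a phospholipid acyltransferase, was higher in KO by 0.52 and 0.63, at 2048 on WT (-), 2928 on KO (-), 1117 on WT (+) and 1729 on KO (+). Smpdl3a was thus lower in KO as Abcg1 was, and Lpcat3 was not.

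Of the oxysterol and storage genes, Ch25h, which makes 25-hydroxycholesterol, was not well above background on either (-) array and reached 268.0 on WT (+) and 48.5 on KO (+). It rose at least 20.3-fold in WT and at least 3.30-fold in KO, and was 5.53-fold lower in KO after re-stimulation. Soat1, which esterifies cholesterol, was at 1967 on WT (-), 2887 on KO (-), 2930 on WT (+) and 5879 on KO (+), higher in KO by 0.55 and 1.00 on the log2 scale. Gramd1b, a sterol transfer protein at membrane contacts, was at 1455 on WT (-), 2833 on KO (-), 25010 on WT (+) and 19410 on KO (+), a rise of 4.10 and 2.78. Ch25h and Gramd1b were thus highest on WT (+), and Soat1 on KO (+).

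Among the other fatty acid synthesis genes 7 of 25 measured fell at least 2-fold and 5 rose in WT, and 7 of 24 fell and 4 rose in KO, where 13.5% and 13.2% of all genes did in WT and 13% and 12.4% in KO. Acss2, which makes acetyl-CoA from acetate, was at 598.4 on WT (-), 353.1 on KO (-), 112.4 on WT (+) and 77.7 on KO (+). Fads1, a desaturase, was at 746.8 on WT (-), 548.2 on KO (-), 152.0 on WT (+) and 152.6 on KO (+). Acacb, the mitochondrial acetyl-CoA carboxylase, was at 309.5 on WT (-), 102.7 on KO (-), 38.09 on WT (+) and 28.79 on KO (+). Each of the 3 was lower on both re-stimulated arrays, and Acacb was also lower in KO before re-stimulation, by 1.59. Elovl5, a fatty acid elongase, was at 9617 on WT (-), 8324 on KO (-), 4808 on WT (+) and 2232 on KO (+), and was lower in KO by 0.21 before and 1.11 after. Of the genes past 2-fold between genotypes in both states, Acsl6, an acyl-CoA synthetase, was lower in KO and Me1, malic enzyme, was higher. Acsl6 was at 134.5 on WT (-), 482.3 on WT (+) and 176.9 on KO (+) and not well above background on KO (-), at least 9.15-fold lower before and 1.45 log2 units lower after. Me1 was not well above background on WT (-) and was at 44.97 on KO (-), 27.04 on WT (+) and 91.73 on KO (+), at least 3.41-fold higher in KO before and 3.39-fold higher after.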

How the data were processed

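RNA from Th cells of 4 groups (500 ng each) was labelled with Cy3 and hybridised to 1 one-colour Agilent whole-genome array per group. The values that the authors deposited are spot intensity, array by array, from Agilent Feature Extraction 10.7 (submitters' notes; 10.7.3.1 in the file header), already background-subtracted, with flags for spots above background. The log2 table that the authors deposited equals log2 intensity less the array's own 75th percentile, within 0.01 for at least 41001 of 41173 probes, and served as an alternative. Its making is not given in the sources used here.

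Uneven or outlying spots (107 to 120 per array) were left out, spots of a probe were averaged, and log2 intensity was centred on the 75th percentile of each array. Scaled signal adds back the mean percentile, 380.1. Of 41173 probes 27479 (66.74%) were named by transcript accession through the RefSeq gene table of GRCm38.p6, and the other probes entered only the scaling. Where a gene had several probes, the brightest was taken. A gene counted as measured in a comparison if 1 or both of the 2 arrays had its probe well above background, the dimmer value being raised to the lowest signal well above background on its array (scaled, 13.18 to 18.58) and the fold then written as "at least". Counts of array features give no depth, so precision is limited by how many arrays there were.

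With 1 array per group no p-value was computed. Lists were described by counts past 2-fold and by medians beside those of all genes. The genes of the set and the other lists were chosen with earlier results of these data known. Values in all 4 arrays were given for genes of the set past 2-fold in any comparison and for examples of each role. Of the other lists, genes past 2-fold between genotypes in both states or with the largest differences were named, though not every gene that met this rule. Promoter windows came from RefSeq (GRCm38.p6) and were searched for exact letters. Alternatives tried were scaling to the median, to the detected probes or to Cd3e, quantile normalization, normexp, the deposited log2 table, the mean over probes, both arrays above background, no filter, and a 1.5-fold threshold. The fold counting was tested on simulated data. Python 3.11.15 (numpy 2.4.6, pandas 2.3.3, matplotlib 3.10.9) were used, and limma 3.58.1 ran in R 4.3.3.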

Additional observations from a re-analysis of the deposited data

Results flagged for a closer look

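In 16 genes the difference between KO and WT had opposite signs in the 2 states, lower in KO before re-stimulation and higher after it, each by more than the median SD between probes over all genes. That SD does not measure the spread between cultures. The size given is the change on re-stimulation in KO minus that in WT, in log2 units, and no difference was tested, since each group held 1 array. Among the sterol enzymes it was 1.65 for Fdft1, 1.48 for Msmo1, 1.45 for Cyp51, 1.29 for Hmgcs1, 1.25 for Hsd17b7, 1.06 for Lss, 1.01 for Dhcr7, 1.00 for Sqle, 0.97 for Mvd, 0.89 for Pmvk, 0.78 for Nsdhl and 0.62 for Mvk. It was 0.86 for Acly, 0.71 for Fasn, 0.53 for Stard4 and 0.43 for Acaca. In Acly and Acaca the change on re-stimulation itself also had opposite signs, lower in WT and higher in KO, by the same 0.86 and 0.43. The WT sign of both turned with scaling to Cd3e, to 0.11 and 0.038. Of the 3 Acaca probes well above background on all arrays, the other 2 were higher on re-stimulation in WT, by 0.49 and 0.59. After re-stimulation the Acaca probes differed between genotypes by -0.41 to 0.16, and those of Fasn by -0.20 and 0.38, so the opposite signs in these genes rest on the probe chosen. The dimmer Stard4 probes differed by -0.08 before re-stimulation, within the median probe SD of 0.0885, beside -0.40 for the brighter one.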

How the results depend on the processing

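No paired analysis was possible because each group held 1 array, and for the same reason no array could be left out. Of the medians and counts of the set, 143 values under the alternatives kept their direction and stayed near the main value, 27 moved and 0 reversed direction for the set as a whole or its sterol enzymes. Scaling to the array median shifted all genes by -0.30 (WT) and -0.26 (KO) on re-stimulation, and scaling to Cd3e shifted all genes by 0.27 and 0.25, and by 0.14 and 0.10 between genotypes before and after. With no filter the median of all genes shifted by 0.10 between genotypes before re-stimulation and by 0.34 and 0.30 on re-stimulation in WT and KO. Among all genes past 2-fold on re-stimulation, 49.35% were higher in WT and 48.85% in KO, against 29.09% and 30.76% with median scaling and 71.47% and 67.69% with scaling to Cd3e. For the set, scaling to Cd3e gave 2 higher and 10 lower in KO in place of 1 and 16, and 1 higher and 2 lower between genotypes before in place of 0 and 2.

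The 13 sterol enzymes lower in KO before and higher after were 12 with scaling to Cd3e. The median change in WT was -1.64 with median scaling and -1.05 with Cd3e (sterol enzymes -2.37 and -1.77, -1.88 with normexp and -1.82 with the mean over probes). In KO it was -1.18, -0.66 and, with the mean over probes, -0.69 (sterol enzymes -1.47 with median scaling and -0.95 with Cd3e). Between genotypes before it was -0.26 with Cd3e (sterol enzymes -0.35), and after it was 0.29 for the sterol enzymes with the mean over probes. At 1.5-fold, 1 gene was higher and 9 lower in KO before, 10 higher and 5 lower after, and 2 were higher on re-stimulation in WT and 3 in KO. With no filter 1 was past 2-fold higher in KO before, with normexp 0 were after and 0 on re-stimulation in WT, as with both arrays above background, which leaves Abca1 out of that comparison.

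Directions turned with scaling to Cd3e for the SREBP control median in KO (0.11), the transport median before (0.0048), Srebf2 (0.0094) and Insig2 (0.11) in KO, and Acly (0.11) and Acaca (0.038) in WT. It also turned Hsd17b7 in KO (0.16) and, between genotypes before, the SREBP control median (0.13), Srebf1 (0.13), Sc5d (0.12), Srebf2 (0.085) and Scap (0.068), all from values within the probe SD. Median scaling turned Scap (-0.068) and Nr1h2 (-0.049) in WT and Acaca (-0.091) in KO. The mean over probes turned the transport median after (0.26), Acaca in WT (0.37), Mylip after (0.52) and in KO (0.35), and Acacb after (0.24), and moved Mylip before from 0.05 to -1.31. Differences near 0 in Ebp, Mylip, Fads1 and Srebf2 changed sign under some further alternatives. The cause was not tested.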

Other observations

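Of 18 genes of fatty acid oxidation and its control, 14 of 16 measured were lower after re-stimulation in WT, with a median change of -0.74, and 11 of 14 in KO, with a median of -0.57. Of all genes 50.25% were lower in WT and 49.44% in KO. The falls of Decr1 and Ppargc1a in WT were bounds, since neither was well above background on WT (+). At least 2-fold, 2 rose and 2 fell in WT, where 13.2% and 13.5% of all genes did, and 2 rose and 3 fell in KO, where 12.4% and 13% did. Pparg, a nuclear receptor for fatty acids, was at a scaled signal of 37.15 on WT (-), 467.4 on KO (-), 74.3 on WT (+) and 1121 on KO (+), 12.6-fold higher in KO before and 15.1-fold higher after re-stimulation. Both KO arrays were above both WT arrays. Slc25a20, the mitochondrial acylcarnitine carrier, was at 326.4 on WT (-), 377.5 on KO (-), 913.1 on WT (+) and 810.8 on KO (+), and was higher on both re-stimulated arrays.

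Cyp11a1, which makes pregnenolone from cholesterol, was named after its values were seen. Its scaled signal was 57.27 on WT (-), 4922 on KO (-), 107.2 on WT (+) and 9137 on KO (+), 85.9-fold and 85.2-fold higher in KO. It was thus well above background on all 4 arrays and higher on both KO arrays. On re-stimulation it was higher by 0.90 in WT and 0.89 in KO, short of 2-fold.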
